A study of Mus musculus with 36 samples.

Results

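Tubulins are the building blocks of microtubules. The 10 tubulin genes described here are 7 alpha tubulins (Tuba1a, Tuba1b, Tuba1c, Tuba3a, Tuba3b, Tuba4a and Tuba8) and 3 beta tubulins (Tubb2a, Tubb2b and Tubb4a), out of 51734 gene symbols in the count table. They were chosen by name, with their values in the 18 libraries already known. Their levels and changes are therefore given as a description with standard errors (SE) and without p-values, and counts of them past a threshold are descriptive too. Each SE of a log2 change was worked back from the fit, as the size of the change over the square root of its F statistic. It is approximate, and can be too small for large changes from few counts. All 10 passed the filter on low counts, which left 20511 genes.

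RNA was sequenced at 2 stages of the mouse line E14, as embryonic stem cells (ESC) and, after retinoic acid, as neural precursor cells (NPC). At each stage 3 genotypes were measured with 3 libraries each. They were wild type (WT), a mutant with catalytically dead MLL3 and MLL4 (dCD), and MLL2dTAG, in which MLL2 is fused to a degron, so that dTAG-13 marks it for destruction. These 3 enzymes methylate lysine 4 of histone H3, a mark of active promoters and enhancers, and their genes are Kmt2b (MLL2), Kmt2c (MLL3) and Kmt2d (MLL4). Per the labels every library of the 6 groups, WT included, was treated with dTAG-13, so no comparison isolates the compound. NPC received it at 2 µM from day 1 of differentiation and were harvested on day 4, and how long ESC were treated is not stated in the labels. Each genotype is a cell line of its own, so genotype and line cannot be told apart. The labels do not say whether the 3 libraries of a group came from separate cultures, so p-values measure only the spread between these libraries. Neither a loss of catalytic activity nor degradation of a protein is visible in the mRNA level of the targeted gene, which therefore checks no label here.

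Library totals ranged from 19430860 to 46041277 counts. WT ESC replicate 2 stood apart from its group. The chi-square of counts per degree of freedom was 10.5 against replicate 1 and 8.38 against replicate 3. All other pairs of libraries within a group had 2.19 to 4.43. That library enters every ESC comparison with WT and the comparison of WT stages. The labelled stages were checked against marker genes, given in CPM (counts scaled to the library size). The summed level of 6 ESC markers (Pou5f1, Nanog, Zfp42, Esrrb, Klf4 and Dppa5a) ranged from 2490 to 2840 CPM in WT ESC and from 25.5 to 26.3 CPM in WT NPC. Of 5 neural precursor markers, 4 exceeded 1 CPM at both stages, with sums of 66.8 to 75.0 CPM in WT ESC and 135 to 138 CPM in WT NPC. Between these, mean Nes went from 63.6 to 91.2 CPM and Pax6 from 1.75 to 38.9. Sox1 stood at 3.05 and 3.10 CPM and Sox3 at 2.21 and 2.97. The sum was 274 to 307 CPM in dCD NPC and 189 to 191 in MLL2dTAG NPC. Hes5 stayed below 1 CPM in every group. Markers of other lineages were also present in NPC. The sum of 4 endoderm markers ranged from 4.86 to 5.90 CPM in WT ESC and from 141 to 148 in WT NPC, above the neural precursor sum there, with 140 to 145 in dCD NPC and 249 to 256 in MLL2dTAG NPC. The sum of 4 mesenchyme markers ranged from 336 to 354 CPM in WT NPC, 409 to 463 in dCD NPC and 161 to 169 in MLL2dTAG NPC. That sum was higher in ESC of each line, at 403 to 506 CPM in WT, 628 to 712 in dCD and 697 to 749 in MLL2dTAG. The part of these other lineages in the tubulin values was not tested.

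A microtubule is a polymer of alpha and beta tubulin dimers, and mammals encode each subunit in several genes, the isotypes. Isotypes are nearly alike in their folded core and differ most in the acidic tail at the C-terminus, where enzymes add or remove amino acids and motor proteins bind. Most alpha tubulins end in a tyrosine that Vasohibin and its partner Svbp remove and Ttl restores. Tuba1a, Tubb2a, Tubb2b and Tubb3 are abundant in developing neurons, Tubb4a in mature brain, while Tuba3a and Tuba3b are known chiefly from testis.

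The coding ends of 9 of the genes are shown because the tail is where isotypes differ, and because identical stretches limit how reads can be assigned. Each line is the last 30 coding bases before the stop codon, from the GENCODE M21 transcripts of the GRCm38 build, 5′ to 3′, with the last codon in capitals.
Tuba1b: ggcgagggggaggaagaaggagaggagTAC
Tuba1c: gctgaaggagacgatgagggtgaggaaTAT
Tuba3a: gaagcagaggcagaagaaggggaggagTAC
Tuba3b: gaagcagaggcagaagaaggggaggagTAC
Tuba4a: tcctatgaggacgaggatgagggagaaGAG
Tuba8: tttgaagaagagaatgagggggaggaaTTT
Tubb2a: ttcgaggaggaggagggtgaagatgagGCT
Tubb2b: ttcgaggaggaagagggcgaggatgagGCT
Tubb4a: ttcgaagaggaggctgaagaggaggtgGCT

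Tuba3a and Tuba3b carried the same 30 bases, and their last codon, like that of Tuba1b and Tuba1c, is a tyrosine codon. Tuba4a ended in GAG and Tuba8 in TTT, neither of which encodes tyrosine. Over the whole coding sequence Tuba3a and Tuba3b were 97.0% identical (1309 of 1350 aligned bases), whereas Tuba3a shared 81.3% to 84.0% with the other 5 alpha tubulins. Tuba1a and Tuba1b were 98.3% identical, and Tubb2a and Tubb2b 96.5%.

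Near-identical copies can exchange reads. Of all 50-base windows along the transcript, 66.4% in Tuba3a and 70.5% in Tuba3b occurred in no other gene, and 473 windows were common to both. The figure was 27.1% for Tuba1a, 26.2% for Tuba1b and 39.0% for Tuba1c, so levels of these 3 are the least certain. It was 50.4% for Tubb2a and 60.7% for Tubb2b, and at least 98.9% for Tuba4a, Tuba8 and Tubb4a.

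Of the 10 genes, 9 had a promoter window in RefSeq (GRCm38.p6, 250 bases before to 50 after the start). The windows of Tuba3a (chr6:125286032-125286331, minus strand) and Tuba3b (chr6:145615713-145616012, plus strand) are shown because Tuba3a had the largest change between genotypes and Tuba3b is its closest copy. Each is printed 5′ to 3′ on the strand of its gene, with every CCAAT in capitals.
Tuba3a: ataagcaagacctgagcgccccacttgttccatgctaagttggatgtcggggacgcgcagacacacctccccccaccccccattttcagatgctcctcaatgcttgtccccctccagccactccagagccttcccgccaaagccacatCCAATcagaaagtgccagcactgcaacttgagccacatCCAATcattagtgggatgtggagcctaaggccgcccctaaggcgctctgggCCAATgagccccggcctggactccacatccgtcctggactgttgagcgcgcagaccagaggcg
Tuba3b: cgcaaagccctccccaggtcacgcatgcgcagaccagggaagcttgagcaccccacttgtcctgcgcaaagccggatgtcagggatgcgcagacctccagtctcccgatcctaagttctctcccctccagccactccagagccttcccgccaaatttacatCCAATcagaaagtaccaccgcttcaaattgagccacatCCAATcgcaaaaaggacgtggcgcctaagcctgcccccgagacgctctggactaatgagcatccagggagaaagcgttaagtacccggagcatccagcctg

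The windows of Tuba3a and Tuba3b agreed at 203 of 332 aligned columns (61.1%). CCAAT, searched on both strands, occurred 3 times in the Tuba3a window, 2 times in that of Tuba3b, 1 time each in those of Tuba1a and Tuba1c and in none of the other 5. Of 32851 RefSeq windows of the same length, 37.4% held at least 1 CCAAT and 3.37% held 3 or more. The Tuba3a window held 12 CpG and that of Tuba3b 16, against a median of 7 over all windows and 39 in that of Tuba1b, the highest among the 9. A match describes letters and is neither a site nor a cause.

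**Figure D1:**
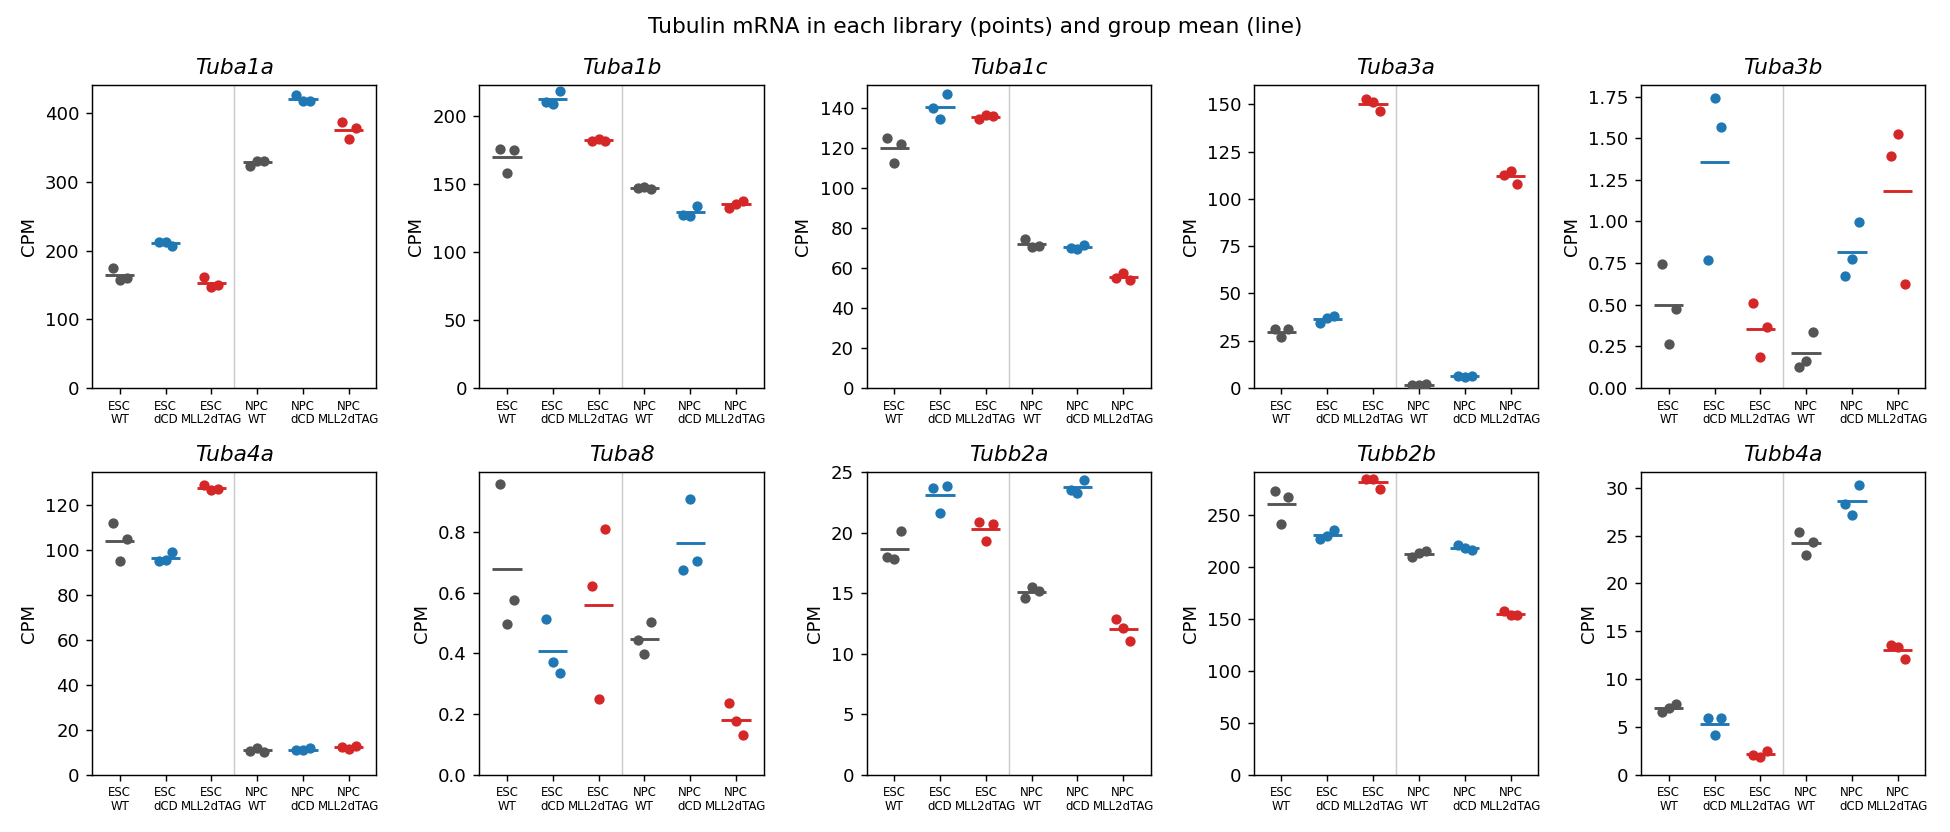
Levels of the 10 tubulin genes in CPM (vertical axes, each starting at 0 with its own scale) in the 18 libraries, by stage and genotype; points are libraries and lines are group means. Tuba3a stood between 108 and 153 CPM in the MLL2dTAG libraries of both stages and between 1.41 and 37.8 CPM in all others.

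Tuba3a differed most between the groups. In WT ESC its level was 31.1, 27.0 and 31.0 CPM, in dCD ESC 34.1, 36.9 and 37.8 CPM, and in MLL2dTAG ESC 153, 151 and 146 CPM. In WT NPC it was 1.71, 1.41 and 1.96 CPM, in dCD NPC 6.5, 5.77 and 6.25 CPM, and in MLL2dTAG NPC 113, 115 and 108 CPM. No 2 of the 6 groups overlapped, and the order of their means was WT NPC, dCD NPC, WT ESC, dCD ESC, MLL2dTAG NPC and MLL2dTAG ESC. Counts were not scarce even at the lowest level: the WT NPC libraries held 54, 53 and 70 Tuba3a counts and the MLL2dTAG NPC libraries 3796, 5203 and 4135.

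Against WT at the same stage, the log2 change of Tuba3a was 0.29 (SE 0.06) in dCD ESC, 2.34 (SE 0.05) in MLL2dTAG ESC, 1.87 (SE 0.12) in dCD NPC and 6.05 (SE 0.08) in MLL2dTAG NPC. The last of these is a 66.1-fold higher level, and the change in MLL2dTAG ESC is 5.06-fold. The dCD and MLL2dTAG comparisons of a stage share its WT libraries. The smaller SE in MLL2dTAG NPC than in dCD NPC is therefore not a sign of higher precision, and is likely too small. The MLL2dTAG change in NPC ranged from 5.89 to 6.17 over all alternative settings, among them 1 in which Tuba3a and Tuba3b counts were summed. The change in NPC minus the change in ESC was 1.57 (SE 0.14) for dCD and 3.71 (SE 0.11) for MLL2dTAG.

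Tuba3b, its closest copy, was near the detection limit. It had 14, 8 and 14 counts in WT ESC, 18, 42 and 42 in dCD ESC, and 14, 6 and 14 in MLL2dTAG ESC. In NPC it had 4, 6 and 12 counts in WT, 22, 28 and 34 in dCD and 47, 69 and 24 in MLL2dTAG. The dCD libraries lay above those of WT at both stages, and those of MLL2dTAG lay above WT in NPC and overlapped it in ESC. The log2 change was 1.53 (SE 0.43) in dCD ESC, -0.42 (SE 0.50) in MLL2dTAG ESC, 1.94 (SE 0.47) in dCD NPC and 2.48 (SE 0.45) in MLL2dTAG NPC.

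In MLL2dTAG ESC the copies parted: the same libraries held 4166, 4861 and 5602 Tuba3a counts beside the 14, 6 and 14 of Tuba3b. How reads that fit both genes were counted is not given in the labels, and its part in the Tuba3b values was not tested.

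**Figure D2:**
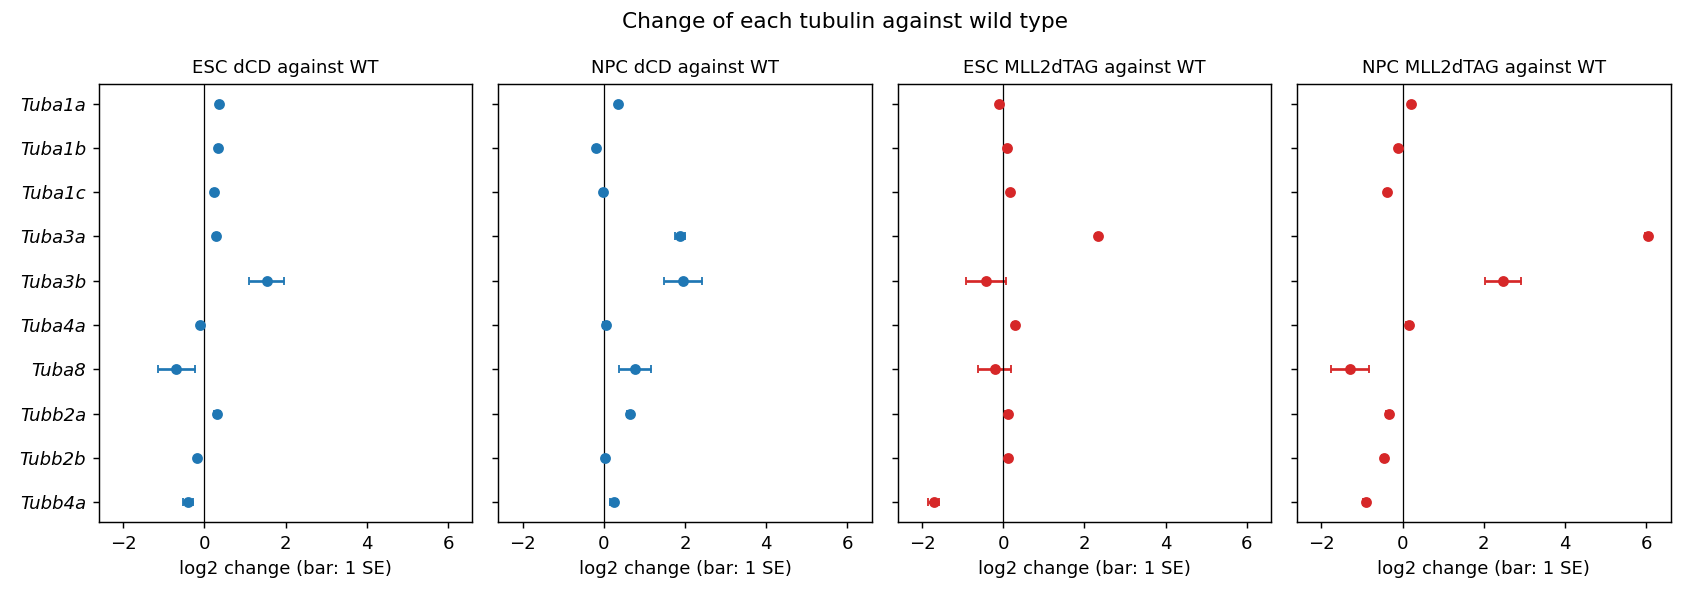
Log2 change of each tubulin gene against WT (horizontal axes, the same in all panels; bars are 1 SE) in ESC and NPC of the dCD and MLL2dTAG lines, 3 libraries per group. Tuba3a reaches 6.05 in MLL2dTAG NPC, while Tuba1a, Tuba1b and Tuba1c stay between -0.38 and 0.36 in all 4 panels.

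The 3 abundant alpha tubulins changed little by comparison. Tuba1a, the chief alpha tubulin of young neurons, stood at 174, 158 and 160 CPM in WT ESC, 212, 212 and 207 in dCD ESC and 161, 147 and 150 in MLL2dTAG ESC. In NPC it stood at 324, 331 and 331 CPM in WT, 427, 418 and 418 in dCD and 387, 363 and 379 in MLL2dTAG. Both mutant lines lay above WT in NPC, and in ESC only dCD did, while MLL2dTAG overlapped WT. The log2 change of Tuba1a was 0.36 (SE 0.04) in dCD at either stage, -0.10 (SE 0.04) in MLL2dTAG ESC and 0.20 (SE 0.04) in MLL2dTAG NPC. The MLL2dTAG values were -0.06 without WT ESC replicate 1, and 0.11 in NPC with upper quartile scaling.

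Tuba1b, expressed in most tissues, had 176, 158 and 175 CPM in WT ESC, 210, 208 and 218 in dCD ESC and 182, 183 and 182 in MLL2dTAG ESC. In NPC it had 147, 148 and 146 CPM in WT, 127, 126 and 134 in dCD and 133, 136 and 138 in MLL2dTAG. Both lines were above WT in ESC and below it in NPC, with no overlap in any of the 4 comparisons. The log2 changes were 0.33 and 0.10 in ESC of dCD and MLL2dTAG and -0.19 and -0.12 in NPC (SE 0.04 each). The MLL2dTAG values were 0.06 without WT ESC replicate 2, and -0.21 in NPC with upper quartile scaling.

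Tuba1c, also broadly expressed, had means of 120 CPM (SD 6.48, n = 3) in WT ESC, 141 (SD 6.16) in dCD ESC and 136 (SD 1.08) in MLL2dTAG ESC. In NPC the means were 72.1 CPM (SD 2.17) in WT, 70.4 (SD 0.977) in dCD and 55.6 (SD 1.83) in MLL2dTAG. The dCD and WT libraries overlapped in NPC, and the other 3 pairs of groups did not. The log2 changes were 0.23 in dCD ESC, 0.18 in MLL2dTAG ESC, -0.03 in dCD NPC and -0.38 in MLL2dTAG NPC (SE 0.04 each).

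Tuba4a, which like Tuba8 lacks a tyrosine codon at its end, separated the stages. It stood at 112, 95.2 and 105 CPM in WT ESC and at 10.5, 11.7 and 10.2 CPM in WT NPC. The dCD libraries ranged from 94.9 to 99.3 CPM in ESC and from 10.8 to 11.8 in NPC, and those of MLL2dTAG from 127 to 129 and from 11.4 to 12.6. Except for MLL2dTAG ESC, which lay above WT with a log2 change of 0.30 (SE 0.05), the mutant groups overlapped WT.

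Tuba8, known from heart, skeletal muscle and testis, had 5 to 33 counts per library. In MLL2dTAG NPC the counts were 8, 8 and 5, below the 14, 15 and 18 of WT NPC, and in dCD NPC they were 22, 33 and 24, above WT. The log2 changes were -1.30 (SE 0.47) and 0.77 (SE 0.39). In ESC both mutant groups overlapped WT.

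The beta tubulins were lower in MLL2dTAG NPC. Tubb4a, a beta tubulin of brain, had 25.4, 23.0 and 24.3 CPM in WT NPC, 28.3, 27.2 and 30.3 in dCD NPC and 13.6, 13.4 and 12.1 in MLL2dTAG NPC. In ESC it had 6.6, 7.0 and 7.41 CPM in WT, 5.89, 4.14 and 5.97 in dCD and 2.09, 1.86 and 2.45 in MLL2dTAG. The groups did not overlap within either stage, and the MLL2dTAG libraries were the lowest at both. The log2 change in MLL2dTAG was -1.71 (SE 0.14) in ESC and -0.90 (SE 0.08) in NPC, and in dCD -0.40 (SE 0.12; -0.25 without dCD ESC replicate 2) and 0.24 (SE 0.08).

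Tubb2b, a beta tubulin of developing brain, had 210, 213 and 215 CPM in WT NPC, 221, 218 and 216 in dCD NPC and 157, 153 and 153 in MLL2dTAG NPC. Its WT ESC libraries had 273, 241 and 267 CPM, those of dCD 227, 229 and 235 and those of MLL2dTAG 285, 284 and 275. The order therefore reversed between the stages: MLL2dTAG was highest in ESC and lowest in NPC. The log2 change was 0.11 in MLL2dTAG ESC (0.06 without WT ESC replicate 2), -0.46 in MLL2dTAG NPC, -0.18 in dCD ESC and 0.04 in dCD NPC (SE 0.04 each).

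Tubb2a, its close copy, was less abundant. It had 14.6, 15.5 and 15.2 CPM in WT NPC, 23.6, 23.3 and 24.4 in dCD NPC and 12.8, 12.1 and 11.1 in MLL2dTAG NPC, with no overlap. In ESC the means were 18.7 CPM (SD 1.29, n = 3) in WT, 23.1 (SD 1.25) in dCD and 20.3 (SD 0.873) in MLL2dTAG, of which the last overlapped WT. The log2 change was 0.30 in dCD ESC, 0.12 in MLL2dTAG ESC, 0.65 in dCD NPC and -0.33 in MLL2dTAG NPC (SE 0.07 each).

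The counts of tubulin genes past the threshold are set beside those of all genes, since most genes differed between these lines. At an adjusted p under 0.05 (edgeR quasi-likelihood test, Benjamini-Hochberg over 20511 genes) 6 of the 10 were higher and 2 lower in dCD ESC, against 25.7% and 22.6% of all genes tested (48.3% in all). In MLL2dTAG ESC 5 were higher and 2 lower, against 28.7% and 28.2% (56.9% in all), and only 4 of the 10 passed when the fit held just the 2 groups compared. In dCD NPC 5 were higher and 1 lower, against 26.7% and 26.8% (53.5% in all). In MLL2dTAG NPC 4 were higher and 6 lower, against 33.3% and 28.4% (61.7% in all). Which of these last shares was larger depended on the scaling. Median log2 changes of the 10 genes were 0.26, 0.11, 0.30 and -0.23 in these 4 comparisons, beside medians of 0.02, 0.00, -0.02 and 0.03 over all genes. Since the genes were chosen with these libraries known, the counts describe them and support nothing further.

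For the change in NPC minus that in ESC, 5 of the 10 were higher and 2 lower for dCD, against 20% and 22.9% of all genes (42.9% in all). For MLL2dTAG 4 were higher and 4 lower, against 26.4% and 22.6% (49.0% in all), and which of these shares was larger depended on the scaling.

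To compare levels between genes, counts were divided by exon length, giving RPKM, CPM per kilobase of exon, and expressed as shares of the 7 alpha tubulin genes. In WT ESC, Tuba1a made up 32.3%, Tuba1b 32.0%, Tuba1c 18.6%, Tuba4a 9.96% and Tuba3a 6.98% of alpha tubulin mRNA. Tuba3b and Tuba8 together stayed below the share of any of these. In WT NPC, Tuba1a made up 61.4%, Tuba1b 26.4% and Tuba1c 10.6%, and Tuba4a (0.983%) and Tuba3a (0.378%) were minor.

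In MLL2dTAG ESC the Tuba3a share was 26.5% (SD 0.344, n = 3), with Tuba1b at 25.9% (SD 0.417) and Tuba1a at 22.6% (SD 0.774). The ranges of Tuba3a (26.1% to 26.8%) and Tuba1b (25.4% to 26.1%) touched, so these 2 cannot be ranked. In MLL2dTAG NPC the Tuba3a share was 19.3% (SD 0.703), next to Tuba1b at 18.8% (SD 0.541), whose range of 18.2% to 19.2% overlapped its 18.7% to 20.1%. In dCD the share was 7.02% (SD 0.323) in ESC and 1.20% (SD 0.0614) in NPC.

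The size of the share depended on the length used. When counts were divided by the number of 50-base windows that no other gene holds, a setting chosen after the data were seen, the Tuba3a share was 3.21% in WT ESC, 3.16% in dCD ESC and 13.9% in MLL2dTAG ESC. In NPC it was then 0.155% in WT, 0.496% in dCD and 8.93% in MLL2dTAG. MLL2dTAG had the highest share at both stages under either length.

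**Figure D3:**
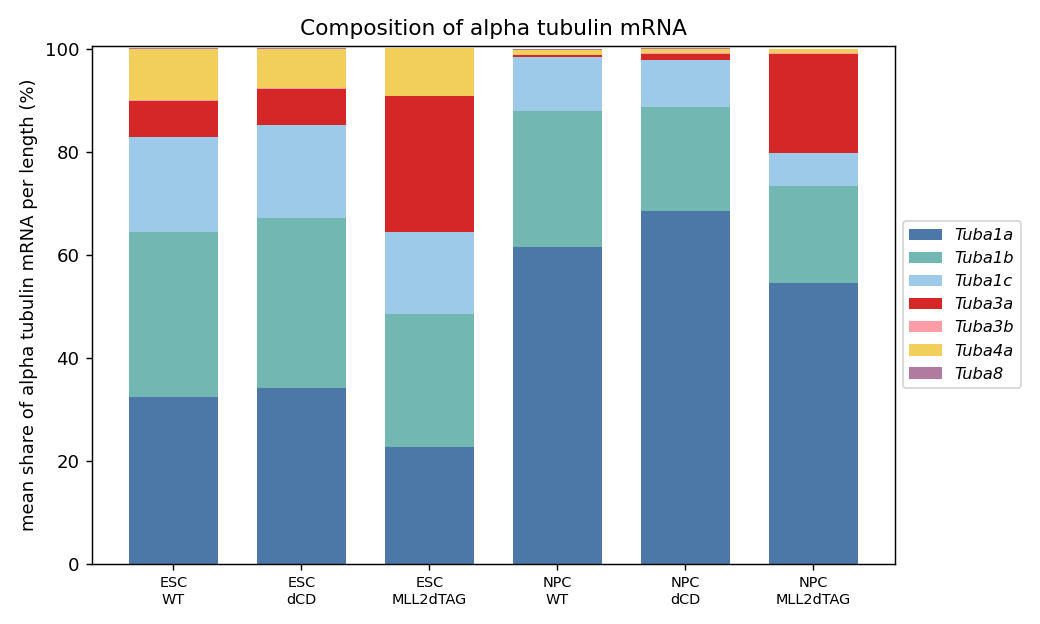
Mean share of each alpha tubulin gene in alpha tubulin mRNA per exon length (vertical axis, percent, from 0) in the 6 groups, 3 libraries each. Tuba3a fills 26.5% of the bar of MLL2dTAG ESC and 19.3% of that of MLL2dTAG NPC, against 0.378% in WT NPC.

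Summed over the 7 alpha tubulins, the level was 282 RPKM (SD 16.1, n = 3) in WT ESC, 342 (SD 5.10) in dCD ESC and 375 (SD 5.33) in MLL2dTAG ESC. Without Tuba3a the last sum was 276 RPKM (SD 3.71), against 263 (SD 14.6) in WT ESC. In NPC the sums were 296 RPKM (SD 1.58) in WT, 341 (SD 3.33) in dCD and 383 (SD 4.86) in MLL2dTAG, and 295, 337 and 309 without Tuba3a. The higher alpha sum of MLL2dTAG NPC was therefore made up mostly of Tuba3a, and that of dCD NPC of Tuba1a, at 234 RPKM (SD 2.91) against 182 (SD 2.35) in WT.

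Summed over 8 beta tubulin genes, the level was 853 RPKM (SD 76.0) in WT ESC, 939 (SD 16.1) in dCD ESC and 826 (SD 10.4) in MLL2dTAG ESC. In NPC the beta sum was 798 (SD 2.63) in WT, 788 (SD 24.5) in dCD and 676 (SD 7.93) in MLL2dTAG. Alpha and beta sums of MLL2dTAG NPC thus lay on opposite sides of WT. The largest difference within the beta sum was in Tubb5, at 422 RPKM (SD 7.64) in MLL2dTAG NPC against 527 (SD 4.02) in WT NPC. Means of Tubb3 (25.1 against 22.7), Tubb4b (91.1 against 87.3) and Tubb6 (56.7 against 47.6) were higher in MLL2dTAG NPC. Of the beta sum of WT NPC, Tubb5 made up 66.1%, Tubb2b 11.6%, Tubb4a 1.36% and Tubb2a 1.18%.

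Between the stages of WT, 2 of the 10 genes were higher in NPC and 7 lower, against 39.1% and 40.4% of all genes (79.5% in all). The median log2 change of the 10 was -0.43, beside -0.04 over all genes. Tubb4a (1.78, SE 0.10) and Tuba1a (1.00, SE 0.04) were higher in NPC. Tuba3a (-4.13, SE 0.09) and Tuba4a (-3.26, SE 0.06) were the lowest, followed by Tuba3b (-1.15, SE 0.54) and Tuba1c (-0.73, SE 0.04). Tuba3b and Tuba8 overlapped between the stages.

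Within each line, the NPC level of Tuba3a was 5.69% of the ESC level in WT, 17.0% in dCD and 74.6% in MLL2dTAG. Tuba4a, which was also lower in WT NPC than in WT ESC, differed less between the lines: 10.4% in WT, 11.6% in dCD and 9.51% in MLL2dTAG. Tubb4a was at 346% of its ESC level in WT, 536% in dCD and 609% in MLL2dTAG, and Tubb2b at 81.6%, 94.8% and 54.9%.

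ESC markers also differed between the NPC groups. Their sum ranged from 25.5 to 26.3 CPM in WT NPC, 37.5 to 38.8 in dCD NPC and 157 to 161 in MLL2dTAG NPC, with none of the 6 at 0. The higher dCD sum came from Klf4, with means of 26.6 CPM in dCD NPC and 14.0 in WT NPC. Pou5f1 (1.27 against 1.01) and Zfp42 (5.10 against 4.62) were slightly higher in dCD NPC. Nanog (1.34 against 1.71), Esrrb (1.10 against 1.18) and Dppa5a (2.91 against 3.31) were lower. In MLL2dTAG NPC, Esrrb was at 2.63%, Nanog at 2.64%, Zfp42 at 3.52%, Pou5f1 at 4.34%, Dppa5a at 5.43% and Klf4 at 26.7% of the ESC level of that line, all below the 74.6% of Tuba3a. In dCD NPC, Klf4 was at 26.0% and the other 5 at 0.204% to 1.54%, on either side of the 17.0% of Tuba3a. In WT NPC, Klf4 was at 11.9% and the other 5 at 0.182% to 1.61%. In bulk RNA, fewer cells of a type and less RNA per cell cannot be told apart.

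Germ cell markers were followed because Tuba3a and Tuba3b are testis isotypes. The sum of 6 of them (Dazl, Ddx4, Mael, Sycp3, Tex101 and Prm1) ranged from 93.3 to 106 CPM in WT ESC and from 14.8 to 18.8 in MLL2dTAG ESC, opposite in direction to Tuba3a. It ranged from 21.8 to 22.9 CPM in WT NPC, 39.7 to 43.1 in dCD NPC and 20.5 to 23.4 in MLL2dTAG NPC. The genes behind the last sum went opposite ways against WT NPC: Dazl rose by 2.64 (log2, SE 0.11, from 262 to 1839 counts) and Tex101 by 2.98 (SE 0.47, from 18 to 163 counts), while Ddx4 fell by 2.24 (SE 0.11), Mael by 1.45 (SE 0.15) and Sycp3 by 1.23 (SE 0.33). In MLL2dTAG ESC, Dazl fell by 1.81 (SE 0.11). Their part in the Tuba3a values was not tested.

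Neuronal markers (7 genes, among them Tubb3, Dcx and Stmn2) summed to 273 to 279 CPM in WT NPC, 412 to 443 in dCD NPC and 267 to 282 in MLL2dTAG NPC, and the dCD NPC libraries were also the highest for Tuba1a, Tubb2a and Tubb4a. In dCD NPC, Stmn2, Tubb3, Map2, Elavl3 and Snap25 rose, Stmn2 the most (from 25.7 to 93.9 CPM), while Dcx (log2 change -0.07, adjusted p 0.29) and Elavl4 (0.02, adjusted p 0.84) did not pass. The part of neuronal cells in the values of those 3 tubulins was not tested.

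**Figure D4:**
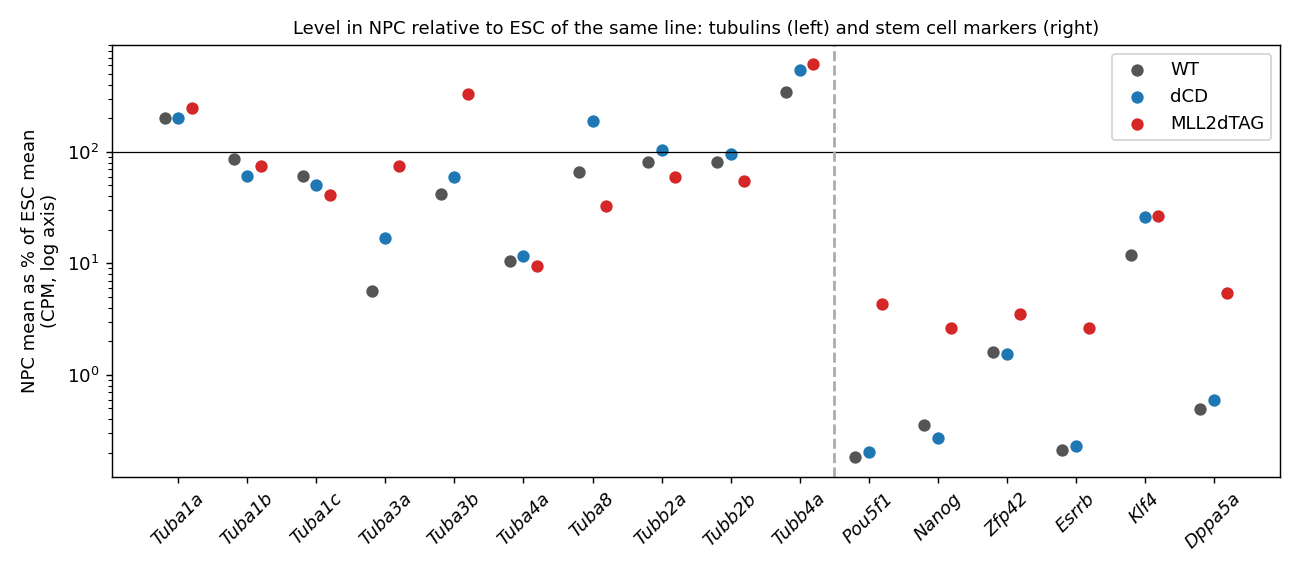
Mean NPC level as a percentage of the mean ESC level of the same line (vertical axis, log scale, CPM) for the 10 tubulin genes and 6 ESC markers; colours give the line and the horizontal line marks 100%. In MLL2dTAG, Tuba3a is at 74.6% while the ESC markers are at 2.63% to 26.7%.

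The genes whose 6 group means most resembled Tuba3a (Pearson correlation of log2 CPM over the 6 groups, as a description) were Mterf3 and Fam129b (both 0.993), 1700066M21Rik (0.990), Ddx55 (0.986) and Epas1 (0.985). Their range was far smaller: Fam129b had 80.9 CPM (SD 1.81, n = 3) in WT NPC and 176 (SD 4.67) in MLL2dTAG NPC, and Epas1, a hypoxia-inducible transcription factor, had 24.0 (SD 0.305) and 115 (SD 2.95).

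The neighbours of Tuba3a in RefSeq order differed among themselves. Ltbr, the lymphotoxin beta receptor, was higher in all 4 comparisons with WT, with log2 changes of 0.70 in dCD ESC, 0.60 in MLL2dTAG ESC, 0.80 in dCD NPC and 1.12 in MLL2dTAG NPC (edgeR adjusted p 9.9e-08, 6.9e-07, 2.3e-12 and 9.2e-17). Ltbr itself was 1.38 higher (log2, SE 0.09) in WT NPC than in WT ESC, where Tuba3a was lower. Scnn1a, a subunit of the epithelial sodium channel, fell by 1.66 in dCD ESC, by 1.23 in MLL2dTAG ESC and by 0.92 in dCD NPC on the log2 scale (adjusted p 1.5e-08, 4.7e-07 and 2.4e-05). In MLL2dTAG NPC, where Tuba3a differed most, Scnn1a had a log2 change of -0.23 (SE 0.16, adjusted p 0.22). On the other side, the long noncoding RNA 4930417O13Rik had 3 counts over the WT NPC libraries and 15 over those of MLL2dTAG NPC (adjusted p 0.045), a call lost under several alternatives. It fell between the WT stages, as Tuba3a was lower, from 30 to 3 counts (adjusted p 9.2e-05).

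Next to Tuba3b, Rassf8 fell by 0.40 in MLL2dTAG ESC and rose by 0.85 in MLL2dTAG NPC on the log2 scale (adjusted p 9e-06 and 4.8e-16). In dCD its log2 changes were -0.03 (adjusted p 0.79) and -0.12 (adjusted p 0.071). LOC115486330 and Gm38475 were not in the table, Gm25373 had 0 counts, and Gm15704 had too few counts to be tested.

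Other genes of the tubulin pathway were taken from 7 lists of 64 genes, of which 62 were in the table and 59 were tested (edgeR, adjusted over all genes). In dCD ESC 22 rose and 13 fell, beside 25.7% and 22.6% of all genes. In MLL2dTAG ESC 20 rose and 26 fell, beside 28.7% and 28.2%. In dCD NPC 21 rose and 19 fell, beside 26.7% and 26.8%, and in MLL2dTAG NPC 20 rose and 23 fell, beside 33.3% and 28.4%. Their median log2 changes were 0.04, -0.11, -0.05 and -0.03. In WT NPC against WT ESC 30 rose and 22 fell, beside 39.1% and 40.4%. The counts of single lists given next are to be read against the same shares, of which the split in MLL2dTAG NPC depended on the scaling.

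Among the 8 other tubulins tested, Tubb3, the beta tubulin used to mark neurons, rose by 0.96 (log2, SE 0.06, adjusted p 8.1e-17) in dCD NPC and by 0.44 (SE 0.06) in dCD ESC. Its change of 0.15 in MLL2dTAG NPC passed, but the call was lost under 5 other settings, upper quartile scaling among them (0.05), and without WT NPC replicate 1 (0.11) or MLL2dTAG NPC replicate 2 (0.13). Its level was 82.4 CPM (SD 3.96, n = 3) in dCD NPC, 42.5 (SD 2.12) in WT NPC and 47.0 (SD 1.14) in MLL2dTAG NPC. Tubg2, a gamma tubulin, fell by 1.91 (SE 0.24, adjusted p 1.1e-08) in MLL2dTAG NPC. Its changes of -0.63 (SE 0.23) in MLL2dTAG ESC and -0.50 (SE 0.21) in dCD NPC passed. The first call was lost without WT ESC replicate 1 or 3 or MLL2dTAG ESC replicate 2 or 3 (-0.60 to -0.49). The second was lost without WT NPC replicate 2 or 3 or dCD NPC replicate 1 or 2 (-0.47 to -0.40). It was also lost with DESeq2 (adjusted p 0.0916) and with RLE size factors in edgeR (adjusted p 0.0503). Both calls were lost with low genes kept in. Tube1, the epsilon tubulin of centrioles, fell by 0.56 in dCD ESC, 0.66 in MLL2dTAG ESC, 0.59 in dCD NPC and 0.60 in MLL2dTAG NPC (SE 0.06 each). Tubd1, the delta tubulin, rose by 0.49 and 0.37 in ESC of dCD and MLL2dTAG (SE 0.09 each) and by 0.55 (SE 0.08) in dCD NPC. Its rise of 0.27 in MLL2dTAG NPC was lost under upper quartile scaling (0.18, adjusted p 0.0508) and without replicate 2 of that group (0.17, adjusted p 0.0916). Between WT stages Tubb4b fell by 1.13 (SE 0.04).

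Genes of tubulin modification, at the tails or elsewhere, held larger changes. Of 14 tested, 3 rose and 4 fell in dCD ESC, 4 rose and 7 fell in MLL2dTAG ESC, 3 rose and 5 fell in dCD NPC, and 5 rose and 5 fell in MLL2dTAG NPC. Ttll7, which adds glutamates to beta tubulin tails, fell by 5.14 (SE 0.25, adjusted p 2.2e-19) in MLL2dTAG NPC, from 4.97 CPM (SD 0.226) in WT NPC to 0.141 (SD 0.0468), or 520 against 16 counts. With only 16 counts this SE is likely too small. Ttll7 did not pass in the other 3 comparisons with WT. Ttll4, also a polyglutamylase, fell by 2.34 (SE 0.05) in MLL2dTAG ESC, from 177 CPM (SD 11.7) to 35.1 (SD 1.33). It fell by 2.28 (SE 0.04) in MLL2dTAG NPC, from 214 CPM (SD 5.32) to 44.2 (SD 0.712), and by 0.67 (SE 0.04) in dCD NPC. Ttll6, another polyglutamylase, fell by 1.70 (SE 0.18) in dCD ESC and by 1.06 (SE 0.17) in MLL2dTAG ESC.

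Ttl, the tubulin tyrosine ligase, rose by 0.49 in dCD ESC and by 0.64 in MLL2dTAG ESC (SE 0.05 each), and fell by 0.32 (SE 0.04) in dCD NPC. Its change of 0.10 in MLL2dTAG NPC passed, but the call was lost under each other scaling, upper quartile scaling among them (0.01), and without any 1 of the WT replicates or MLL2dTAG NPC replicate 1 or 3 (0.08 to 0.11). The call was also lost with DESeq2, with low genes kept in and in the fit of only the groups compared. Agtpbp1, which removes glutamates, rose by 0.72 in dCD NPC and by 0.24 in MLL2dTAG NPC, and fell by 0.22 in dCD ESC and by 0.48 in MLL2dTAG ESC (SE 0.05 each). Svbp rose in all 4 comparisons, by 0.41 (SE 0.08) in dCD ESC, 0.47 (SE 0.08) in MLL2dTAG ESC, 0.24 (SE 0.07) in dCD NPC and 0.45 (SE 0.07) in MLL2dTAG NPC. The Vasohibin genes fell in MLL2dTAG ESC, Vash2 by 1.38 (SE 0.10) and Vash1 by 0.30 (SE 0.12, adjusted p 0.029), and neither passed in dCD ESC. Mean Vash2 was 54.0 CPM in WT NPC, 48.3 in dCD NPC and 47.5 in MLL2dTAG NPC. For Vash1 the means were 15.6, 18.9 and 20.2 CPM. In WT NPC against WT ESC 11 of the 14 rose and 2 fell, from Vash2 (2.37, SE 0.07) to Ttll6 (-4.36, SE 0.23).

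Of 12 microtubule associated and destabilising proteins, 5 rose and 3 fell in dCD ESC, 5 rose and 4 fell in MLL2dTAG ESC, 9 rose and 2 fell in dCD NPC, and 3 rose and 5 fell in MLL2dTAG NPC. In dCD NPC, Stmn2, a stathmin of neurons, rose by 1.87 (SE 0.06), from 25.7 CPM (SD 0.0597) to 93.9 (SD 5.01), and Stmn1 fell by 0.50 (SE 0.04), as it did by 0.27 (SE 0.04) in MLL2dTAG NPC. Map4 rose by 0.72 in MLL2dTAG NPC and by 0.70 in dCD NPC (SE 0.03 each). Dclk1 fell by 1.08 in MLL2dTAG NPC and rose by 0.79 in dCD NPC (SE 0.07 each). Mapt, the tau gene, rose by 1.36 in MLL2dTAG ESC, 0.79 in dCD ESC and 0.60 in dCD NPC (SE 0.08 each). Map2 fell by 0.31 (SE 0.08) in dCD ESC and rose by 0.45 (SE 0.05) in dCD NPC. Its change of -0.21 (SE 0.07) in MLL2dTAG ESC passed, but did so no longer with low genes kept in (-0.15), or without WT ESC replicate 2 or MLL2dTAG ESC replicate 1 (-0.12 each).

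Dcx, a microtubule binder of migrating neurons, had 4 counts over the WT ESC libraries, all in replicate 1, 20 over those of dCD ESC and 0 over those of MLL2dTAG ESC. It passed the threshold in both ESC comparisons, and the call was lost for dCD without WT replicate 2 or 3 and for MLL2dTAG under several alternatives. It had 8524 counts over the WT NPC libraries. Stmn2 fell by 3.67 (log2, SE 0.06) in WT NPC against WT ESC, where it made up most of the neuronal sum, at 327 CPM (SD 37.8).

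All 8 chaperonin subunits, which fold tubulin, fell in WT NPC against WT ESC, with a median of -0.79, where 40.4% of all genes were lower. In dCD ESC 5 rose and none fell, in MLL2dTAG ESC 1 rose and 5 fell, in dCD NPC 1 rose and 4 fell, and in MLL2dTAG NPC 3 rose and 4 fell. Of the 7 folding cofactors, 2 rose and 2 fell, 3 rose and 3 fell, 3 rose and 1 fell, and 3 rose and 2 fell in the same order. Of 8 genes of the gamma tubulin ring, 7 rose and none fell between WT stages, and 2 rose and 2 fell, 5 rose and 2 fell, none rose and 3 fell, and 2 rose and 2 fell in the 4 comparisons with WT. Both tested genes of tubulin mRNA autoregulation, Ttc5 and Cnot11, passed in each of these, Cnot11 upwards and Ttc5 downwards.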

How the data were processed

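The deposited table holds the authors' unnormalized counts of reads, 1 line per gene symbol. HTSeq was used, per the submitters' processing notes, and a stranded TruSeq mRNA kit, per the labels' protocols. Aligner, genome build and the handling of reads that fit several genes are not given in the sources used here. Columns were assigned to 18 of 36 samples by name. Another 6 columns of the table, whose names each occur for more than 1 column, were not used, so the line combining dCD and MLL2dTAG and its planned comparisons were not analysed here, nor was the other table.

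The analysis used edgeR 4.0.16 and limma 3.58.1 under R 4.3.3: filterByExpr by group (20511 genes kept), TMM scaling, 1 mean per group over 18 libraries, quasi-likelihood F test, two-sided, Benjamini-Hochberg adjustment over all genes, calls at 0.05. CPM use TMM factors. Values are mean and SD of 3 libraries. DESeq2 1.42.0 was an alternative. The fit was tested on simulated data. Exon lengths came from GENCODE M21 (GRCm38) and promoters from RefSeq. The coding end of 1 gene is not reported here.

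The 10 tubulin genes and the lists were chosen with earlier results of these data known. Named beside them were, in the lists given with values, the called genes with the largest and smallest change per comparison, the 2 RefSeq neighbours on each side of Tuba3a and Tuba3b, and the 5 genes most like Tuba3a. Vash1 and Vash2 were added as partners of Svbp.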

Additional observations from a re-analysis of the deposited data

Results flagged for a closer look

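Some tubulin genes moved in opposite directions at the 2 stages, every library of the line lying above WT at 1 stage and below it at the other. The fit behind the counts of calls given above also covered this difference. Its p-values are not given, because the genes were chosen with these libraries known. For dCD, the log2 change in NPC minus that in ESC was -0.51 for Tuba1b, 0.21 for Tubb2b and 0.64 for Tubb4a. For MLL2dTAG it was -0.23 for Tuba1b, -0.56 for Tuba1c and -0.57 for Tubb2b. Some of the changes behind these were small. Tubb2b changed by 0.04 (SE 0.04) in dCD NPC. In MLL2dTAG ESC, Tuba1b and Tubb2b changed by 0.10 and 0.11 (SE 0.04 each), or by 0.05 and 0.06 with upper quartile scaling. The share of all genes with such opposite moves was not counted, so nothing particular to tubulins is shown.

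For genes that are not among the 10, the difference itself was tested as an interaction (edgeR, adjusted over all genes). These genes were picked as neighbours, or as the largest or smallest called changes against WT in the same libraries. The test is therefore not independent of that choice. Of all genes, 42.9% passed for dCD and 49% for MLL2dTAG. Tubd1, Tube1, Svbp and 4930417O13Rik did not pass for either line. Ltbr, Mapt, Rassf8, Tubg2 and Ttll7 did not for dCD, nor Dcx, Ttll4, Tubb3 and Stmn2 for MLL2dTAG. The dCD change was higher in NPC than in ESC for Stmn2 (1.91, SE 0.08), Ttll6 (1.63, SE 0.40), Map4 (0.95, SE 0.05), Agtpbp1 (0.94, SE 0.07), Map2 (0.76, SE 0.09), Scnn1a (0.73, SE 0.27), Tubb3 (0.51, SE 0.08) and Dclk1 (0.36, SE 0.14). It was lower for Dcx (-2.38, SE 0.73), Ttl (-0.81, SE 0.07), Ttll4 (-0.73, SE 0.06) and Stmn1 (-0.59, SE 0.06). The Ttll6 call was lost without replicate 3 of dCD NPC (1.05). That of Dcx, which had 4 counts in WT ESC, was lost without WT ESC replicate 2 (-1.73) or 3 (-1.74) and was -6.23 without replicate 1. That of Scnn1a was lost without WT ESC replicate 2, dCD ESC replicate 2 or 3, WT NPC replicate 1 or dCD NPC replicate 1 (0.58 to 0.68).

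The MLL2dTAG change was higher in NPC than in ESC for Rassf8 (1.25, SE 0.09), Scnn1a (1.00, SE 0.25), Map4 (0.82, SE 0.04), Agtpbp1 (0.71, SE 0.07) and Ltbr (0.52, SE 0.11). Ttll6 (0.98, SE 0.38) and Map2 (0.23, SE 0.09) also passed, at adjusted p of 0.033 and 0.038. The change was lower for Ttll7 (-4.91, SE 0.34), Mapt (-1.56, SE 0.12), Tubg2 (-1.28, SE 0.34), Dclk1 (-0.96, SE 0.14), Ttl (-0.54, SE 0.07) and Stmn1 (-0.40, SE 0.06). The Ttll6 call was lost without WT NPC replicate 2, MLL2dTAG ESC replicate 2 or MLL2dTAG NPC replicate 1 or 3 (0.63 to 0.88), and that of Map2 under each other scaling and without WT ESC replicate 2, MLL2dTAG ESC replicate 1, or replicate 2 or 3 of WT NPC or of MLL2dTAG NPC (0.14 to 0.22). That of Dclk1 for dCD was lost without WT ESC replicate 2 or 3, dCD ESC replicate 1 or 3, WT NPC replicate 1 or dCD NPC replicate 1 or 2 (0.23 to 0.37). The Ttll6 call for MLL2dTAG was also lost with library totals only and with halved counts. The Map2 call was also lost with DESeq2 and with low genes kept in, and the Dclk1 call with low genes kept in and with halved counts. Both lines share the WT libraries.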

How the results depend on the processing

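Under the alternatives 329 counts of calls stayed within 1.5 times the reported count and 1 did not: MLL2dTAG ESC had 4 tubulin genes past the threshold instead of 7 when only the 2 groups were fitted (Tuba1a, Tuba1b and Tubb2b, at log2 changes of -0.11, 0.10 and 0.10, no longer passed). Of the values of single genes, Tuba3a shares included, 2816 stayed the same, 25 moved beyond the spread of libraries, 103 lost their call and 1 reversed. The reversal was Dcx in MLL2dTAG ESC, at 0.00 without WT ESC replicate 1, since no other library of the 2 groups had a count. Its change lay between -4.48 and 0.00 over all libraries left out. No called change of the 10 tubulin genes changed direction under the alternatives run. Changes of these genes that were not called did not count as reversals: Tuba8 in MLL2dTAG ESC, at -0.21, ranged from -0.62 to 0.14. Scaling moved the median of all genes by less than 0.1 (log2), but it also moved the split of calls. In MLL2dTAG NPC 54% of called genes were higher with the main scaling and 53.4% with RLE size factors. The share was 44.7% with upper quartile scaling and 45.7% with library totals only. In MLL2dTAG ESC it went from 50.4% to 44.2% with upper quartile scaling. For the MLL2dTAG change in NPC minus that in ESC it went from 53.9% to 44.8% with library totals only. Small changes were the least stable: with library totals only, Tuba4a in MLL2dTAG NPC went from 0.16 to 0.08, and without a filter on low counts Tuba1b in WT NPC against ESC went from -0.20 to -0.10. Replicate numbers did not pair the libraries: same-numbered libraries correlated at -0.019 to 0.026, and 1 or 2 of 6 matched best with their own number. With the replicate number as a block, 12506 genes instead of 12665 passed in MLL2dTAG NPC and all counts stayed within 1.5 times. Alternatives for the line combining dCD and MLL2dTAG were not run. Low counts limit Tuba3b, Tuba8 and Dcx in ESC.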
